A study of Mus musculus with 2 samples.

Results

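The genes described here are 9 genes of tumour necrosis factor signalling and its NF-kB feedback, taken by symbol from the 31253 features of the deposited single-cell tables. They are the ligand Tnf, the receptors Tnfrsf1a and Tnfrsf1b, the feedback and target genes Tnfaip3, Tnfaip2, Nfkbia and Nfkbiz, and the subunit genes Nfkb1 and Relb. All 9 were found and all 9 passed the limits on low counts in each of the 15 clusters compared below, so none of them was lost to a filter. Both groups were mice with an abdominal aortic aneurysm (AAA) produced by infusion of PPE, and the abdominal aorta was dissociated with collagenase I and DNase I. PPE is the labels' abbreviation; elastase from porcine pancreas is the agent usually infused in this model. The Gsdme-KO group carried a global deletion of Gsdme, the gene of the pore-forming protein gasdermin E, and the WT group was C57BL/6J. Each group was 1 BD Rhapsody library. The labels do not give the number of mice in a library, their age or the time after infusion, and no aorta without PPE was analysed here.

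The Gsdme-KO library held 9034 cell barcodes with 52532964 unique molecular identifiers (UMIs), and the WT library 7736 barcodes with 38988898. After filtering, 8784 Gsdme-KO cells and 7619 WT cells remained, with medians of 4062 and 3835 UMIs per cell. Gsdme itself stood at 2.55 CPM (its UMIs scaled by the total UMIs of the cells) in Gsdme-KO cells and 5.53 CPM in WT cells, a ratio of 0.461 (95% interval 0.368 to 0.575); which part of the gene was removed is not given in the labels, so these counts do not check the genotype by themselves. Cells fell into 25 clusters, found without the 9 genes or any other listed gene, and named "-like" from marker lists. The 15 clusters with at least 100 cells in each library were compared, by number, because marker genes of other classes led some of them. With 1 library per group no difference could be tested: each ratio below is Gsdme-KO over WT, its 95% interval covers counting error only, and differences between mice or preparations are not in it. A ratio was counted as past the threshold when it was over 1.5-fold in either direction.

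Tumour necrosis factor is a cytokine made mainly by myeloid cells as a membrane protein that can be shed. It binds a receptor present on most cell types (TNFR1, from Tnfrsf1a) and a more restricted receptor (TNFR2, from Tnfrsf1b), and both can activate NF-kB. In resting cells NF-kB dimers are held by inhibitor proteins such as IkB-alpha (from Nfkbia); after signalling the inhibitor is degraded, the dimers enter the nucleus, and they induce, among many genes, those of IkB-alpha and of the ubiquitin-editing enzyme A20 (from Tnfaip3), which shut the signal down. In aneurysm models, TNF is known as one of the cytokines released by infiltrating macrophages and neutrophils.

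The coordinates are those of GENCODE M21 on mm10, the build named in the submitters' processing notes. Tnf (ENSMUSG00000024401) lies on chromosome 17 from 35199381 to 35202007 on the minus strand. Tnfrsf1a (ENSMUSG00000030341) lies on chromosome 6 from 125349362 to 125362484 on the plus strand, and Tnfrsf1b (ENSMUSG00000028599) on chromosome 4 from 145213463 to 145246870 on the minus strand. Tnfaip3 (ENSMUSG00000019850) lies on chromosome 10 from 19000910 to 19015657 on the minus strand, Tnfaip2 (ENSMUSG00000021281) on chromosome 12 from 111442469 to 111455018 on the plus strand, and Nfkbia (ENSMUSG00000021025) on the same chromosome from 55489410 to 55492647 on the minus strand. Nfkbiz (ENSMUSG00000035356) lies on chromosome 16 from 55811375 to 55838899, Nfkb1 (ENSMUSG00000028163) on chromosome 3 from 135584655 to 135691547 and Relb (ENSMUSG00000002983) on chromosome 7 from 19606217 to 19629438, all on the minus strand. Tnfaip2 alone overlaps an annotated gene on the other strand, Gm40578, which was at 0.613 CPM in Gsdme-KO cells and 0.412 CPM in WT cells; no label or header says whether counting used strand.

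NF-kB dimers bind DNA at kappa B motifs, and the promoters of the inhibitor genes are the textbook place to look for them. RefSeq promoters (GRCm38.p6, 250 bases before and 50 after a start) were at hand for 6 of the 9 genes, in 7 windows; Nfkbiz, Nfkb1 and Relb had none. The motif GGGNNTTTCC, searched on both strands, was present in 535 of 32851 promoters of the same length, or 1.63%, and in those of 2 of the 6 genes. The 250 bases before the start are printed for both of these, Nfkbia and Tnfaip3, and for Tnf, the ligand whose values the results turn on, 5′ to 3′ on the strand of the gene; capitals mark the match, which in both genes is the reverse complement of the motif.
Nfkbia, chr12:55492648-55492897, minus strand: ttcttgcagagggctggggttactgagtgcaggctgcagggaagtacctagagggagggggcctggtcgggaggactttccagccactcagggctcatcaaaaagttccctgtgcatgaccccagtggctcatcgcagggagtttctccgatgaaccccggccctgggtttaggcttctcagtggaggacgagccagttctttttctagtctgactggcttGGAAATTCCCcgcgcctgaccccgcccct
Tnfaip3, chr10:19015411-19015660, minus strand: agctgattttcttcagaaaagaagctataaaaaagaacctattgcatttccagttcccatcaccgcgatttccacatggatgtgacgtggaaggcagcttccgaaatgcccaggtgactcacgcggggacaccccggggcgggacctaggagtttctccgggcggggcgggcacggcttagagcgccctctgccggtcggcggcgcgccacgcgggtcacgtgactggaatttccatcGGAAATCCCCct
Tnf, chr17:35202008-35202257, minus strand: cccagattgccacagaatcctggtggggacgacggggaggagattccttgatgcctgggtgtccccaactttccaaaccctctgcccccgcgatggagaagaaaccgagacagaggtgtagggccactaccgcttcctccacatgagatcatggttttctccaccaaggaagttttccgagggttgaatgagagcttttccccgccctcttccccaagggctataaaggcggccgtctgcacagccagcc
In Nfkbia the first base of the match lies 29 bases before the RefSeq start and in Tnfaip3 12 bases before it. The RefSeq start of Tnfaip3 lies inside the GENCODE span given above, which begins at 19015657 on the minus strand. Most of its printed window therefore lies within that span. The RefSeq starts of Tnfrsf1a and Tnfaip2 also lie inside their GENCODE spans. The Tnf window and those of Tnfrsf1a, Tnfrsf1b, Tnfaip2 and a second start of Tnfaip3 do not hold these letters. Motif matches are a description of the sequence, and no binding was measured here.

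Tnf was most abundant in the neutrophil-like clusters of both libraries. In cluster 0, a neutrophil-like cluster led by Il23a and Siglecf, Tnf was at 6502 CPM in Gsdme-KO cells and 5551 CPM in WT cells, and in cluster 1, the neutrophil-like cluster led by S100a9 and S100a8, at 3543 and 3323 CPM. The next levels were those of macrophage-like cluster 5 (led by genes such as Cd72, Ch25h and Cx3cr1), at 1638 CPM in Gsdme-KO cells and 1789 CPM in WT cells. Monocyte-like cluster 7 (Arg1, Chil3, Thbs1) followed with 1353 CPM in Gsdme-KO cells and 1494 CPM in WT cells. Down to this point each cluster stood apart from the next one in both libraries. The cycling macrophage-like cluster 14, macrophage-like cluster 4 (Gpnmb, Mmp12, Spp1) and platelet-like cluster 21 had overlapping levels, from 688 to 1010 CPM in Gsdme-KO cells and from 797 to 1096 CPM in WT cells. At the low end, fibroblast-like clusters 10 and 16 held 51.3 and 44.8 CPM in Gsdme-KO cells, against 95.8 and 164 CPM in WT cells. The highest cluster exceeded the lowest 145-fold in Gsdme-KO cells and 57.9-fold in WT cells, the widest span of the 9 genes in both libraries.

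The share of cells with a Tnf UMI was also highest in neutrophil-like cluster 0, once every cell was thinned to 1000 UMIs to remove differences in depth. There, 83.3% of 546 Gsdme-KO cells (exact binomial 95% interval 79.9 to 86.4%) and 79.4% of 670 WT cells (76.1 to 82.4%) had one; unthinned, the shares were 84.4 and 79.6%. In macrophage-like cluster 5 the thinned shares were 65.9% of 818 Gsdme-KO cells and 70.4% of 1331 WT cells, and unthinned 89.4 and 90.9%. In fibroblast-like cluster 10 they were 3.01% of 996 Gsdme-KO cells (2.04 to 4.27%) and 6.08% of 609 WT cells (4.31 to 8.28%), and unthinned 18.8 and 33.7% at median depths of 10386 and 8239 UMIs. Thinning left out 109 Gsdme-KO and 104 WT cells of cluster 0, and 2 and 3 cells of cluster 10. Tnf was also concentrated in few cells outside the myeloid clusters: the 5% of cells with the most Tnf UMIs held 74.7% of them in cluster 10 of the Gsdme-KO library and 60.9% in WT, against 20.4 and 22.1% in cluster 0.

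**Figure D1:**
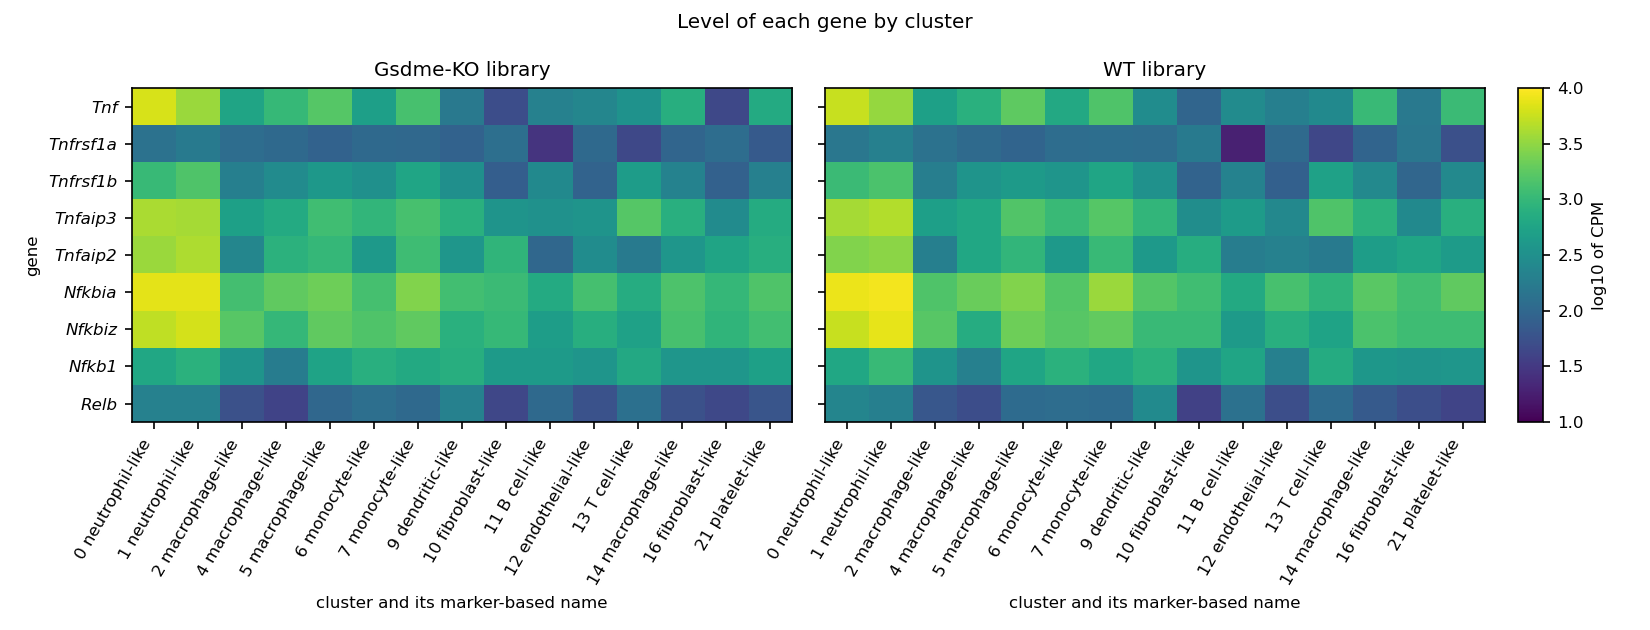
Level of each of the 9 genes (rows) in each of the 15 clusters (columns), as log10 of CPM of the summed UMIs, in the Gsdme-KO library (left) and the WT library (right). Tnf reaches 6502 CPM in Gsdme-KO and 5551 CPM in WT cells of cluster 0, and Tnfrsf1a lies between 19.1 and 201 CPM everywhere.

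Because clusters differ in size and depth, the cluster with the highest Tnf level was not the largest single source of Tnf UMIs. Macrophage-like cluster 5 gave 26.7% of all Tnf UMIs of the Gsdme-KO library and 42.0% of those of the WT library, while holding 9.76 and 18.7% of the cells. Neutrophil-like cluster 0 gave 19.4% in Gsdme-KO and 17.7% in WT, from 7.46 and 10.2% of the cells. Macrophage-like cluster 2, led by the resident-macrophage genes Fcna, Lyve1 and Folr2, gave 14.2% in Gsdme-KO and 5.62% in WT, from 10.4 and 7.86% of the cells. Fibroblast-like cluster 10 gave 1.65% in Gsdme-KO and 1.28% in WT, from 11.4 and 8.03% of the cells, and cluster 16 gave 0.755% in Gsdme-KO and 1.29% in WT, from 6.32 and 4.44% of the cells.

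**Figure D2:**
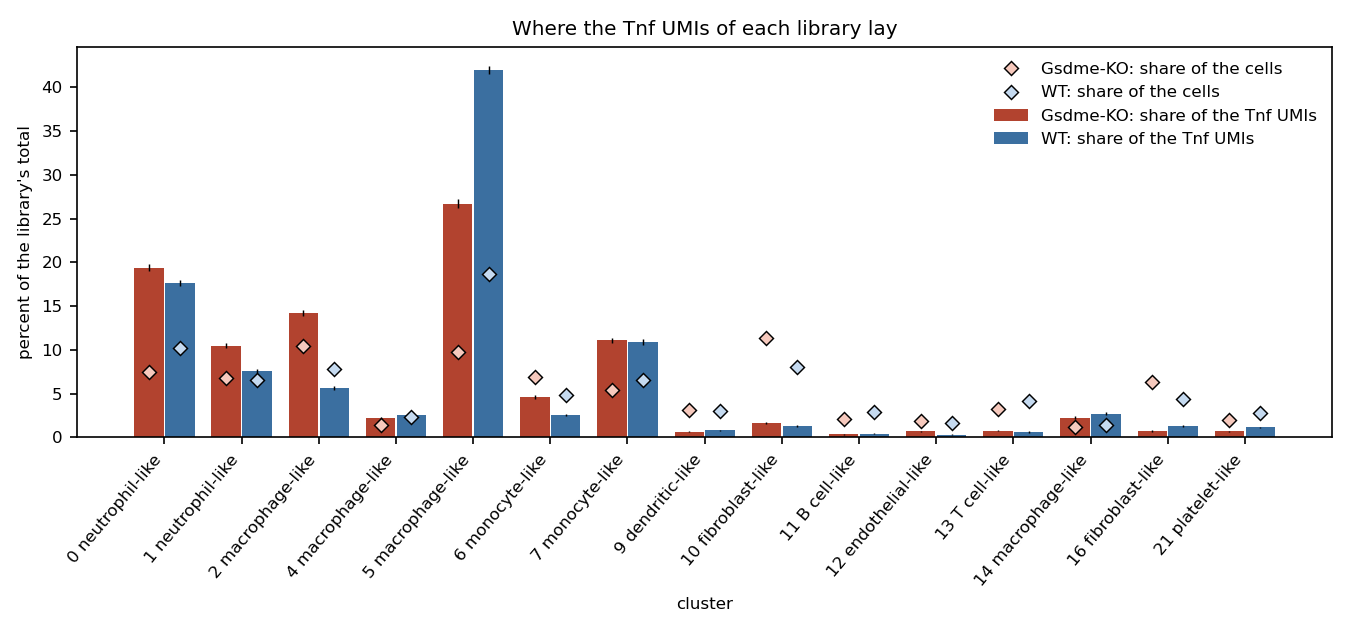
Share of each library's Tnf UMIs that came from each cluster (bars, with exact binomial 95% intervals) and share of the library's cells in that cluster (diamonds), Gsdme-KO left of WT. Cluster 5 gives 26.7% of the Tnf UMIs in Gsdme-KO and 42.0% in WT; the small and unnamed clusters are not drawn.

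Over all cells together, Tnf was at 698 CPM in the Gsdme-KO library and 1072 CPM in the WT library, a ratio of 0.651 (0.642 to 0.661). Within the 9 clusters with the highest Tnf levels the ratios lay on both sides of 1. They were 1.17 (1.13 to 1.21) in neutrophil-like cluster 0, 1.07 in cluster 1, 1.12 in macrophage-like cluster 2, 1.27 in cluster 4, 0.915 (0.893 to 0.938) in cluster 5 and 0.906 in monocyte-like cluster 7. They were lower, and nearer to the ratio over all cells, in monocyte-like cluster 6 (0.756), in cycling macrophage-like cluster 14 (0.689) and in platelet-like cluster 21 (0.628). In cluster 14 the 8 neutrophil markers summed to 102 CPM in Gsdme-KO and 551 CPM in WT, with 2 of 8 higher. Their part in the Tnf ratio was not tested. The makeup of the libraries differed at the same time: cluster 5 held 11.4% of the UMIs of Gsdme-KO cells and 25.2% of those of WT cells, and fibroblast-like cluster 10 held 22.4 and 14.3%. When the Gsdme-KO level of each of the 25 clusters was weighted by the WT makeup, the summed Tnf level came to 1030 CPM, 0.961 of the WT value; when the WT levels were weighted by the Gsdme-KO makeup it came to 742 CPM, 0.693 of the WT value. With 1 library each, a makeup that differs by genotype and one that differs by preparation cannot be told apart.

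Under the same exchange Tnfrsf1b and Tnfaip3 had the same arrangement as Tnf, and Nfkbia, Tnfaip2 and Tnfrsf1a had others. Nfkbia, at 1632 CPM in Gsdme-KO and 2303 CPM in WT cells over all clusters (0.709, interval 0.702 to 0.715), came to 0.837 of the WT value with the Gsdme-KO levels at the WT makeup and to 0.839 with the WT levels at the Gsdme-KO makeup. Tnfaip3, at 778 CPM in Gsdme-KO cells and 1096 CPM in WT cells (0.710), came to 0.898 and 0.765. Tnfrsf1b, at 258 CPM in Gsdme-KO cells and 349 CPM in WT cells (0.738), came to 0.940 and 0.785. Tnfaip2 was almost the same over all cells, at 755 CPM in Gsdme-KO cells and 761 CPM in WT cells (0.992), with 1.16 for its levels at the WT makeup and 0.855 for the makeup alone, so that levels and makeup lay on opposite sides of 1. Tnfrsf1a had the reverse arrangement, 0.849 for levels and 1.09 for makeup, around 108 CPM in Gsdme-KO cells and 121 CPM in WT cells (0.892). For Nfkbiz, Nfkb1 and Relb the ratios over all cells were 0.817, 0.970 and 0.814, and with the Gsdme-KO levels at the WT makeup 0.911, 1.02 and 0.927. With the WT levels at the Gsdme-KO makeup they were 0.889, 0.927 and 0.872.

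**Figure D3:**
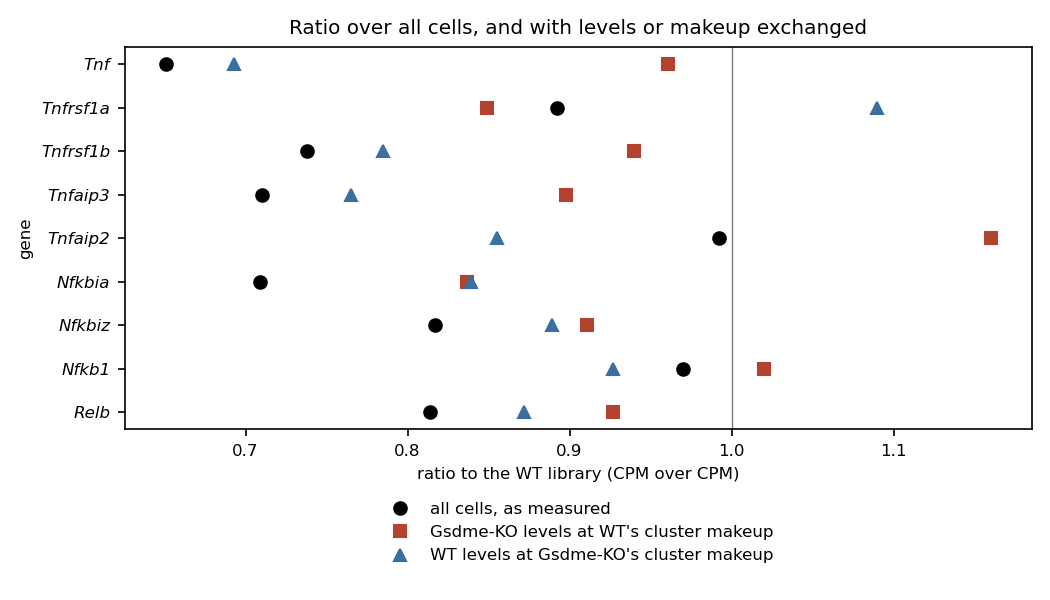
Ratio to the WT library over all cells (circles), with the Gsdme-KO levels weighted by the WT cluster makeup (squares) and with the WT levels weighted by the Gsdme-KO cluster makeup (triangles), for each of the 9 genes; the axis is a linear ratio of CPM. For Tnf the measured ratio is 0.651, the square stands at 0.961 and the triangle at 0.693.

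The lowest Tnf ratios were in clusters 16, 10 and 9, where Tnf was low. In fibroblast-like cluster 16 (Sema3c, Cd55) Tnf was at 44.8 CPM in Gsdme-KO cells from 275 UMIs and 164 CPM in WT cells from 536 UMIs, a ratio of 0.273 (0.235 to 0.317). In fibroblast-like cluster 10 (Mmp3, Sfrp1, Gdf10) it was at 51.3 CPM in Gsdme-KO cells and 95.8 CPM in WT cells, a ratio of 0.535 (0.475 to 0.602). Dendritic-like cluster 9 had 163 CPM in Gsdme-KO cells and 285 CPM in WT cells (0.572, interval 0.482 to 0.676). These 3 ratios and that of platelet-like cluster 21 (688 CPM in Gsdme-KO, 1096 CPM in WT, 0.628) were the Tnf values past 1.5-fold, all lower in Gsdme-KO. The ratio of cluster 21 did not stay past 1.5-fold under 7 of 10 alternative settings and was 1.10 without the cells of the highest doublet scores; that of cluster 9 was 0.703 at a finer clustering.

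Macrophage markers were lower along with Tnf in these clusters, but not in all clusters. In fibroblast-like cluster 16 the 8 macrophage markers summed to 270 CPM in Gsdme-KO cells and 550 CPM in WT cells, and in cluster 10 to 249 and 457 CPM, with 0 of the 8 higher in Gsdme-KO in either cluster and none at 0. In dendritic-like cluster 9 they summed to 702 CPM in Gsdme-KO and 1083 CPM in WT, with 1 of 8 higher, and in platelet-like cluster 21 to 2771 and 3440 CPM, also with 1 of 8 higher. The neutrophil markers in cluster 16 summed to 56.5 CPM in Gsdme-KO and 117 CPM in WT, with 0 of 8 higher. In the other 3 clusters they were close in both libraries, at 124 CPM in Gsdme-KO and 132 CPM in WT in cluster 10 (5 of 8 higher), 651 and 631 CPM in cluster 9 (4 of 8) and 981 and 881 CPM in cluster 21 (4 of 8). For each 100 UMIs of macrophage markers there were 20.6 Tnf UMIs in cluster 10 of the Gsdme-KO library and 21.0 in WT, against 16.6 and 29.8 in cluster 16 and 16.6 and 17.6 in macrophage-like cluster 5. Among cells of cluster 10 with no UMI of a macrophage or neutrophil marker, a comparison added after the data were seen, Tnf was at 13.3 CPM in 219 Gsdme-KO cells (23 UMIs) and 29.1 CPM in 78 WT cells (12 UMIs), a ratio of 0.456 (0.218 to 1.01). The same cells of cluster 16 gave 20.1 CPM in 159 Gsdme-KO cells (25 UMIs) and 27.0 CPM in 36 WT cells (5 UMIs), a ratio of 0.746 (0.281 to 2.50). Both intervals include 1, as did that of dendritic-like cluster 9 (0.367, interval 0.0845 to 1.60), from 5 Tnf UMIs in each library. Over all cells without these markers, with all clusters pooled, the ratio was 0.507 (0.402 to 0.641). It came from 190 Tnf UMIs in Gsdme-KO and 123 in WT. In some other clusters macrophage markers and Tnf went opposite ways. The macrophage markers summed to 531 CPM in Gsdme-KO and 839 CPM in WT in endothelial-like cluster 12, where the Tnf ratio was 1.22. In T cell-like cluster 13 they summed to 661 and 996 CPM, with a Tnf ratio of 1.26. In B cell-like cluster 11 they summed to 2173 and 1480 CPM, with a Tnf ratio of 0.751. The neutrophil markers in cluster 12 went the same way as Tnf, at 320 CPM in Gsdme-KO and 171 CPM in WT (7 of 8 higher). In cluster 13 they summed to 247 and 287 CPM and in cluster 11 to 190 and 180 CPM, with 5 of 8 higher in both. The part of free RNA and of doublets in the Tnf counts of fibroblast-like and dendritic-like cells was not tested further.

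Both receptor genes were highest in neutrophil-like cluster 1, and they differed elsewhere. Tnfrsf1a, the gene of the death-domain receptor TNFR1, varied little outside the lymphoid and platelet-like clusters. It was highest in neutrophil-like cluster 1, at 172 CPM in Gsdme-KO cells and 201 CPM in WT cells, followed by fibroblast-like cluster 10 at 126 and 172 CPM, neutrophil-like cluster 0 at 135 and 155 CPM and fibroblast-like cluster 16 at 118 and 156 CPM. The clusters from the second to the fifth place could not be put in order, since their values in the 2 libraries overlapped. The lowest levels were in lymphoid clusters, at 45.0 CPM in Gsdme-KO and 44.1 CPM in WT cells of T cell-like cluster 13, and at 28.5 and 19.1 CPM in B cell-like cluster 11 (18 and 12 UMIs). Tnfrsf1a was lower in Gsdme-KO cells of both fibroblast-like clusters, with ratios of 0.736 (0.678 to 0.800) in cluster 10 and 0.759 (0.676 to 0.851) in cluster 16. The share of cells with a UMI after thinning was 12.7% in Gsdme-KO and 13.0% in WT cells of cluster 10, so the shares overlapped there while the CPM values did not. In 11 of the 15 clusters its ratio was below 1 (10 with TMM or median-of-ratios scaling), as were 34.9% of 2999 features measured in all of them in at least 11, and the highest, in B cell-like cells, was just short of 1.5-fold as counted and just past it with either scaling, with an interval of 0.681 to 3.40.

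Tnfrsf1b, the gene of TNFR2, was a leukocyte gene in these data. It was at 1483 CPM in Gsdme-KO cells and 1426 CPM in WT cells of neutrophil-like cluster 1, and at 1046 and 1104 CPM in cluster 0. Monocyte-like cluster 7 had 574 CPM in Gsdme-KO and 576 CPM in WT cells, T cell-like cluster 13 had 450 and 523 CPM, and macrophage-like cluster 5 had 403 and 436 CPM. These first 5 clusters were ordered alike in both libraries, with no overlap between neighbours. Fibroblast-like clusters 16 and 10 and endothelial-like cluster 12 formed the low end, between 79.8 and 90.1 CPM in Gsdme-KO cells and between 83.3 and 96.7 CPM in WT cells, and did not differ beyond their spread. Its ratios ranged from 0.782 (0.664 to 0.919) in macrophage-like cluster 4 to 1.22 (0.970 to 1.55) in B cell-like cluster 11. None of its 15 ratios was past 1.5-fold.

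Among the feedback genes, Nfkbia, which encodes the inhibitor IkB-alpha, was on the same side of 1 in the most clusters when plain CPM was used. Nfkbia was at 7434 CPM in Gsdme-KO cells and 8251 CPM in WT cells of neutrophil-like cluster 0, a ratio of 0.901 (0.875 to 0.927), and at 7617 and 8959 CPM in cluster 1 (0.850). Monocyte-like cluster 7 had 2713 CPM in Gsdme-KO cells and 3506 CPM in WT cells, a ratio of 0.774 (0.752 to 0.796), and macrophage-like cluster 5 had 2167 and 2698 CPM (0.803). It was lower in Gsdme-KO in 14 of 15 clusters, by a median ratio of 0.843, with B cell-like cluster 11 as the exception at 689 CPM in Gsdme-KO and 664 CPM in WT (1.04, interval 0.905 to 1.19). Of the 2999 features measured in all 15 clusters, 179, or 5.97%, were below 1 in at least 14. With TMM or median-of-ratios scaling Nfkbia was below 1 in 12, since fibroblast-like cluster 10 and endothelial-like cluster 12 then lay above 1. Tnfaip2 was then above 1 in 12 as well. With plain CPM, 23.5% of the 2999 features were below 1 in at least 12. These scalings moved every ratio of cluster 10 by 0.16 and 0.15 on the log2 scale, those of cluster 16 by 0.14 and 0.13, those of cluster 21 by −0.04 and −0.12, and those of the other clusters by at most 0.10. No ratio of Nfkbia was past 1.5-fold in these 15 clusters, the lowest being 0.774. In the small SMC-like cluster 18, with 157 Gsdme-KO and 58 WT cells, it was at 574 CPM in Gsdme-KO cells and 934 CPM in WT cells (0.614), and this cluster was too small in WT to be compared further.

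Tnfaip3, the gene of A20, was highest in the neutrophil-like clusters. It was at 4162 CPM in Gsdme-KO cells and 3993 CPM in WT cells of neutrophil-like cluster 0, and at 3993 and 4529 CPM in cluster 1. T cell-like cluster 13 came next at 1613 CPM in Gsdme-KO and 1510 CPM in WT cells, not apart from monocyte-like cluster 7 at 1346 and 1611 CPM, which was not apart from macrophage-like cluster 5. Its ratio was below 1 in macrophage-like cluster 5, at 1202 CPM in Gsdme-KO and 1527 CPM in WT cells (0.788, interval 0.766 to 0.810). It was above 1 in fibroblast-like cluster 10, at 360 CPM in Gsdme-KO and 293 CPM in WT cells (1.23, interval 1.16 to 1.30), and in endothelial-like cluster 12, at 356 and 253 CPM (1.41, interval 1.17 to 1.70). The 15 ratios split 8 below and 7 above 1, so no common direction was seen.

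Tnfaip2, a TNF-induced gene whose human protein is linked to membrane protrusions, was the member most often higher in Gsdme-KO. It was at 3510 CPM in Gsdme-KO cells and 2673 CPM in WT cells of neutrophil-like cluster 0 (1.31, interval 1.25 to 1.38) and at 4217 and 3030 CPM in cluster 1 (1.39, interval 1.33 to 1.46). Macrophage-like cluster 4 had 838 CPM in Gsdme-KO and 619 CPM in WT cells (1.35), and endothelial-like cluster 12 had 288 and 207 CPM (1.40). Fibroblast-like cluster 10 held it at 921 CPM in Gsdme-KO and 746 CPM in WT cells (1.24), next below macrophage-like cluster 5 at 988 and 937 CPM. It was above 1 in 11 of 15 clusters (12 with either other scaling), against 17.1% of the 2999 features that were not below 1 in at least 11. Its ratios past 1.5-fold lay in opposite directions: 750 CPM in Gsdme-KO and 443 CPM in WT cells of platelet-like cluster 21 (1.69, interval 1.40 to 2.05), and 101 CPM in Gsdme-KO and 189 CPM in WT cells of B cell-like cluster 11 (0.536, interval 0.389 to 0.732). Beside the first, fibroblast markers in cluster 21 summed to 11899 CPM in Gsdme-KO and 4354 CPM in WT, with 8 of 8 higher, and the ratio was within 1.5-fold under 8 of 10 settings, the lowest being 1.18; beside the second, macrophage markers in cluster 11 summed to 2173 CPM in Gsdme-KO and 1480 CPM in WT, and the ratio stayed past 1.5-fold in all 10, the lowest being 0.260 without the highest doublet scores. The part of these markers in the ratios was not tested.

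Nfkbiz encodes IkB-zeta, an inducible nuclear IkB protein that acts with NF-kB on secondary response genes. It was at 6485 CPM in Gsdme-KO cells and 7640 CPM in WT cells of neutrophil-like cluster 1 and at 5154 and 5593 CPM in cluster 0, followed by macrophage-like cluster 5 at 1864 and 2162 CPM, not apart from monocyte-like cluster 7. It was below 1 in 11 of 15 clusters, but in 8 with TMM and 9 with median-of-ratios scaling; 34.9% of features were below 1 in at least 11. Its ratios ran from 0.728 (0.672 to 0.788) in dendritic-like cluster 9, at 792 CPM in Gsdme-KO and 1089 CPM in WT cells, to 1.40 (1.27 to 1.54) in macrophage-like cluster 4, at 1005 and 717 CPM. Cluster 4 was thus higher for Nfkbiz, Tnf (1.27) and Tnfaip2 (1.35), while Nfkbia there was at 0.911. In this cluster the stress genes Hspa1a and Hspa1b were also higher in Gsdme-KO, by 3.91 and 3.49 times, and their part was not tested. Among the clusters too small to be compared, Nfkbiz was at 4116 CPM in 11 Gsdme-KO and 5374 CPM in 12 WT mast cell-like cells; mesothelial-like cells held 1293 CPM in Gsdme-KO (58 cells) and 528 CPM in WT (43 cells).

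The subunit genes were more even across clusters. Nfkb1, which encodes p105, the precursor of p50, differed 4.56-fold between its highest and lowest cluster in Gsdme-KO cells and 5.17-fold in WT cells. It was highest in neutrophil-like cluster 1 at 826 CPM in Gsdme-KO and 1039 CPM in WT cells (0.795, interval 0.725 to 0.871). These counts came from few cells: 30 Gsdme-KO cells held 39.9% of them and 26 WT cells 58.6%. The next were monocyte-like cluster 6 (Lyz1, Ear2, Ccr2) at 784 and 816 CPM and dendritic-like cluster 9 at 752 and 816 CPM. In endothelial-like cluster 12 it was at 371 CPM in Gsdme-KO cells and 201 CPM in WT cells, from 387 and 135 UMIs, a ratio of 1.85 (1.52 to 2.26), and 9 Gsdme-KO cells held 50.4% of these UMIs and 7 WT cells 35.6%. That ratio was 1.41 with cells of at least 1000 UMIs, 1.44 without the highest doublet scores and 1.35 after thinning, all within 1.5-fold, and 2.83 as a mean over cells. In the same cluster macrophage markers summed to 531 CPM in Gsdme-KO and 839 CPM in WT, fibroblast markers to 1751 and 3008 CPM and neutrophil markers to 320 and 171 CPM; their part was not tested. Relb, the gene of a subunit of the alternative NF-kB pathway, was highest in dendritic-like cluster 9, at 209 CPM in Gsdme-KO and 273 CPM in WT cells (0.767, interval 0.654 to 0.899), though not apart from neutrophil-like cluster 0 at 209 and 229 CPM. It was lowest in fibroblast-like cluster 10, at 43.5 CPM in Gsdme-KO and 37.7 CPM in WT cells, and in macrophage-like cluster 4, at 40.2 and 51.6 CPM, and no ratio was past 1.5-fold.

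**Figure D4:**
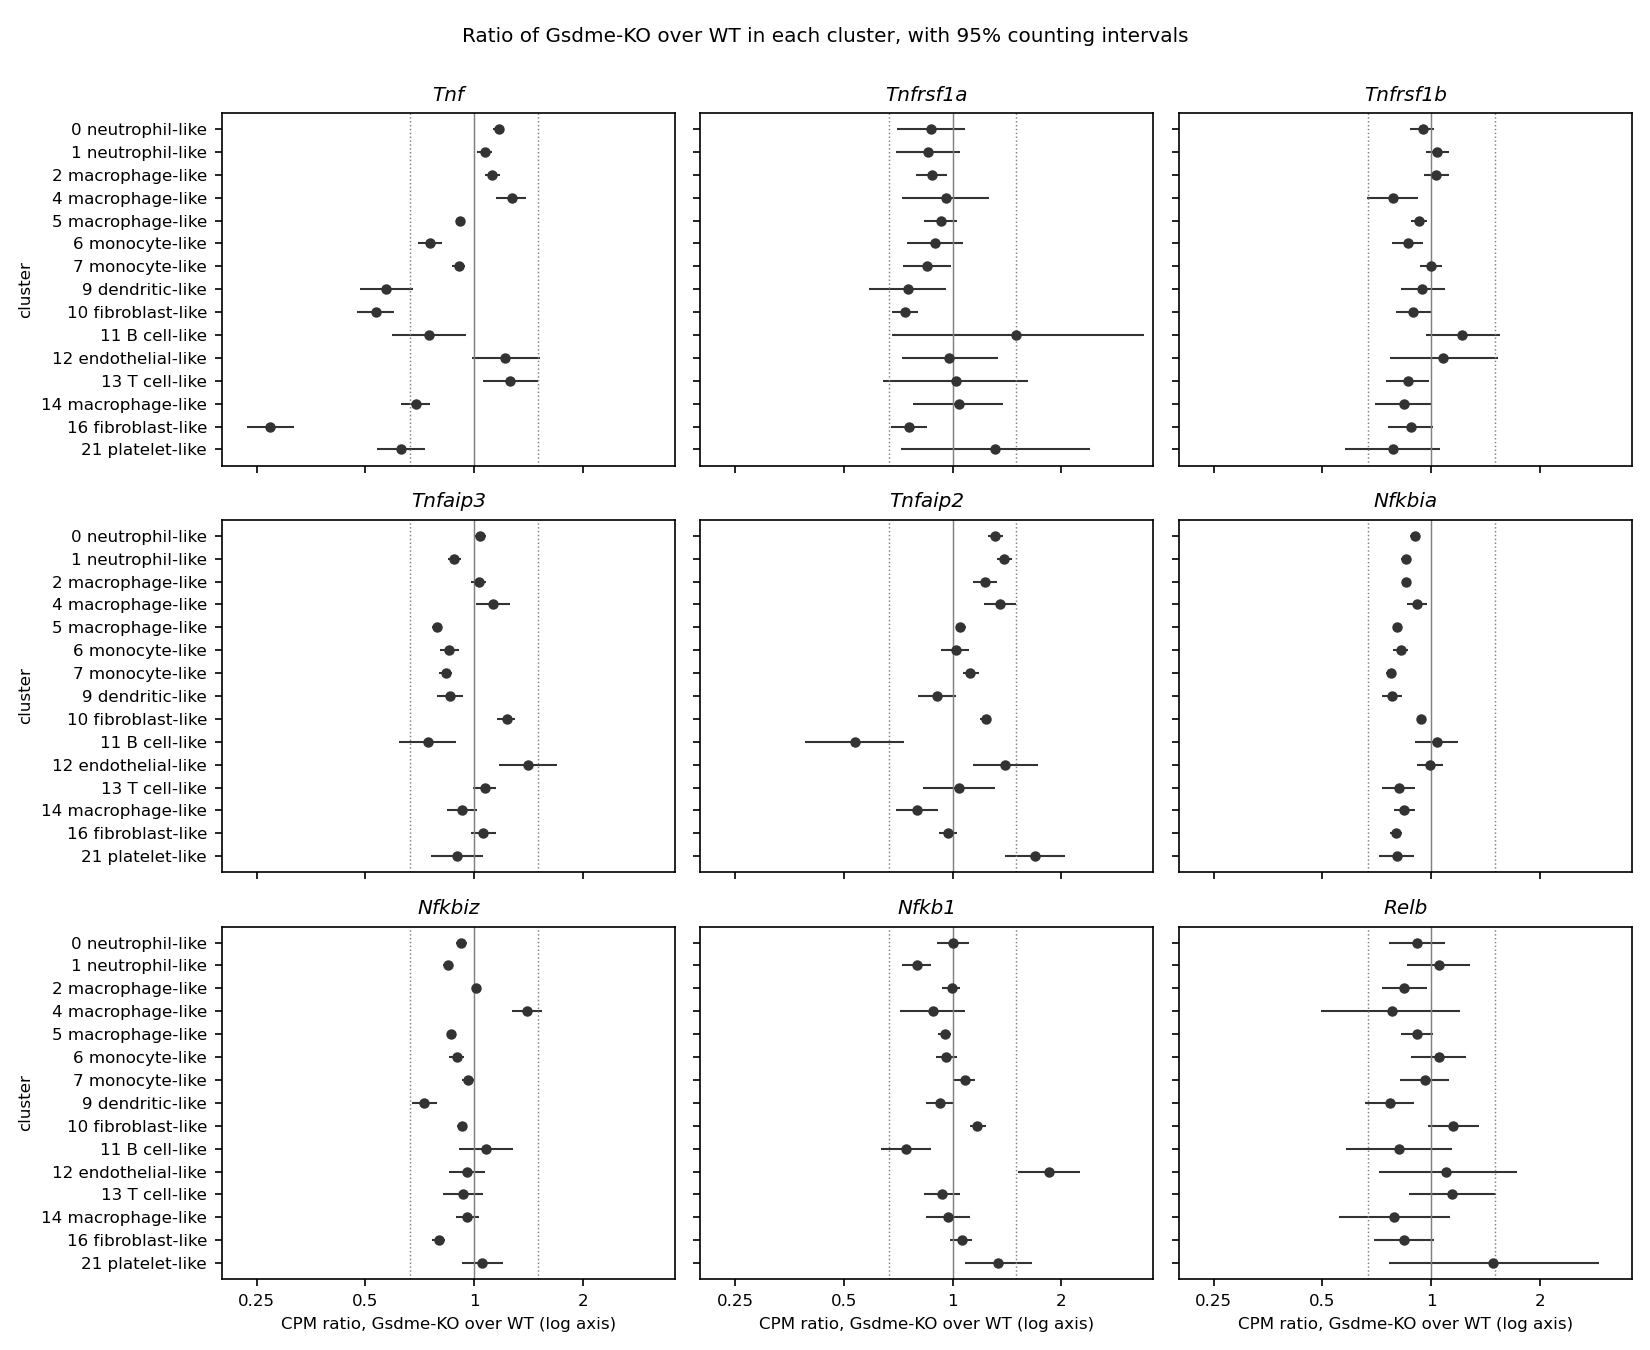
Ratio of Gsdme-KO over WT (log axis, CPM over CPM) for each of the 9 genes in each of the 15 clusters; points are ratios, bars are 95% counting intervals, the solid line marks 1 and the dotted lines 1.5-fold either way. Tnf is lowest in cluster 16 at 0.273, Nfkb1 is highest in cluster 12 at 1.85, and Nfkbia lies between 0.774 and 1.04.

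Of the 135 pairs of gene and cluster, 7 were past 1.5-fold, 2 higher and 5 lower in Gsdme-KO. Read against all features of the same cluster, most counts were at or under what the background gives for 9 genes. In neutrophil-like cluster 0, 0 of 9 were past 1.5-fold in either direction, against 8.50% of 6702 features higher and 8.85% lower; in cluster 1, 0 of 9, against 9.69 and 8.79% of 5265. The macrophage-like clusters also had 0 of 9, with a background of 2.64% higher and 4.14% lower in cluster 2, 6.13 and 10.5% in cluster 4, 2.30 and 2.59% in cluster 5, and 8.41 and 13.2% in cluster 14. So did monocyte-like cluster 6 (5.54% higher, 7.91% lower), monocyte-like cluster 7 (4.35 and 5.51%) and T cell-like cluster 13 (6.91 and 9.81%). Tnf was the 1 of 9 lower in dendritic-like cluster 9, where 7.81% of features were higher and 9.99% lower, in fibroblast-like cluster 10 (4.44 and 9.51%) and in fibroblast-like cluster 16 (4.61 and 11.1%). Tnfaip2 was the 1 of 9 lower in B cell-like cluster 11, with 9.69% of features higher and 15.5% lower, and Nfkb1 the 1 of 9 higher in endothelial-like cluster 12, with 8.06 and 10.9%. In platelet-like cluster 21, Tnfaip2 was higher and Tnf lower, 1 of 9 each way, where 17.3% of features were higher and 14.8% lower. A single gene of 9 is thus a share near the background in these clusters, and the counts say nothing particular about the 9 genes.

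The median log2 ratio over the 9 genes was −0.36 in dendritic-like cluster 9, where that over all features was −0.02, and −0.30 in B cell-like cluster 11 (all features −0.09). It was −0.25 in fibroblast-like cluster 16 and in cycling macrophage-like cluster 14, whose neutrophil markers also differed, with −0.11 and −0.08 over all features. The highest was 0.14 in endothelial-like cluster 12 (all features −0.05). In the 4 clusters with the highest Tnf levels it was −0.08 in neutrophil-like cluster 0 (−0.01 over all features), −0.18 in cluster 1 (−0.00), −0.13 in macrophage-like cluster 5 (−0.04) and −0.06 in monocyte-like cluster 7 (−0.05).

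Within a cluster, cells with a Tnf UMI held more of the feedback transcripts than cells without one. All cells were thinned to 1000 UMIs for this description, and a cluster was used in a library when at least 50 cells of each kind remained, 7 clusters in Gsdme-KO and 8 in WT. In neutrophil-like cluster 0, Nfkbia was at 8549 CPM in 455 Gsdme-KO cells with a Tnf UMI and 3121 CPM in 91 without (2.74 times, interval 2.43 to 3.10), and at 9650 CPM in 532 WT cells with one and 5007 CPM in 138 without (1.93, interval 1.78 to 2.09). Tnfaip3 in the same cells was 3.09 times higher in Gsdme-KO and 2.26 times in WT, Tnfaip2 2.25 and 2.73 times, and Nfkbiz 2.19 and 1.84 times. In macrophage-like cluster 5 the differences were smaller: Nfkbia was at 2443 CPM with and 1760 CPM without a Tnf UMI in Gsdme-KO (1.39) and at 2804 and 2307 CPM in WT (1.22).

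The feedback genes were higher in cells with a Tnf UMI in most clusters of both libraries. Nfkbia was higher in cells with a Tnf UMI in 6 of 7 clusters of the Gsdme-KO library (0.982 to 2.74) and 8 of 8 of the WT library (1.18 to 2.16). Tnfaip3 was higher in 7 of 7 (1.07 to 3.09) and 8 of 8 (1.19 to 2.26), with the counting interval above 1 in 5 and 6 of them. Tnfaip2 was higher in 7 of 7 and 7 of 8, and Nfkbiz in 6 of 7 and 8 of 8. Tnfrsf1a was higher in 1 of 7 clusters in Gsdme-KO and 6 of 8 in WT, with no interval above 1 in either library. Its interval lay below 1 in 2 clusters in Gsdme-KO and in 1 in WT. Tnfrsf1b was higher in 7 of 7 clusters in Gsdme-KO (1.04 to 1.38), with no interval above 1, and in 5 of 8 in WT (0.891 to 1.70), with 2 intervals above 1. Nfkb1 was higher in 3 of 7 and 4 of 8 and Relb in 4 of 7 and 3 of 8. The interval of Nfkb1 lay above 1 in 1 cluster in Gsdme-KO and 3 in WT, and below 1 in 1 of each library. That of Relb lay above 1 in 1 cluster in Gsdme-KO and below 1 in 1 in WT. No share over all features was at hand for these counts, so they do not set the feedback genes apart from other genes. Cells of 1 library are not replicates, and whether a barcode held more than 1 cell was not tested here.

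**Figure D5:**
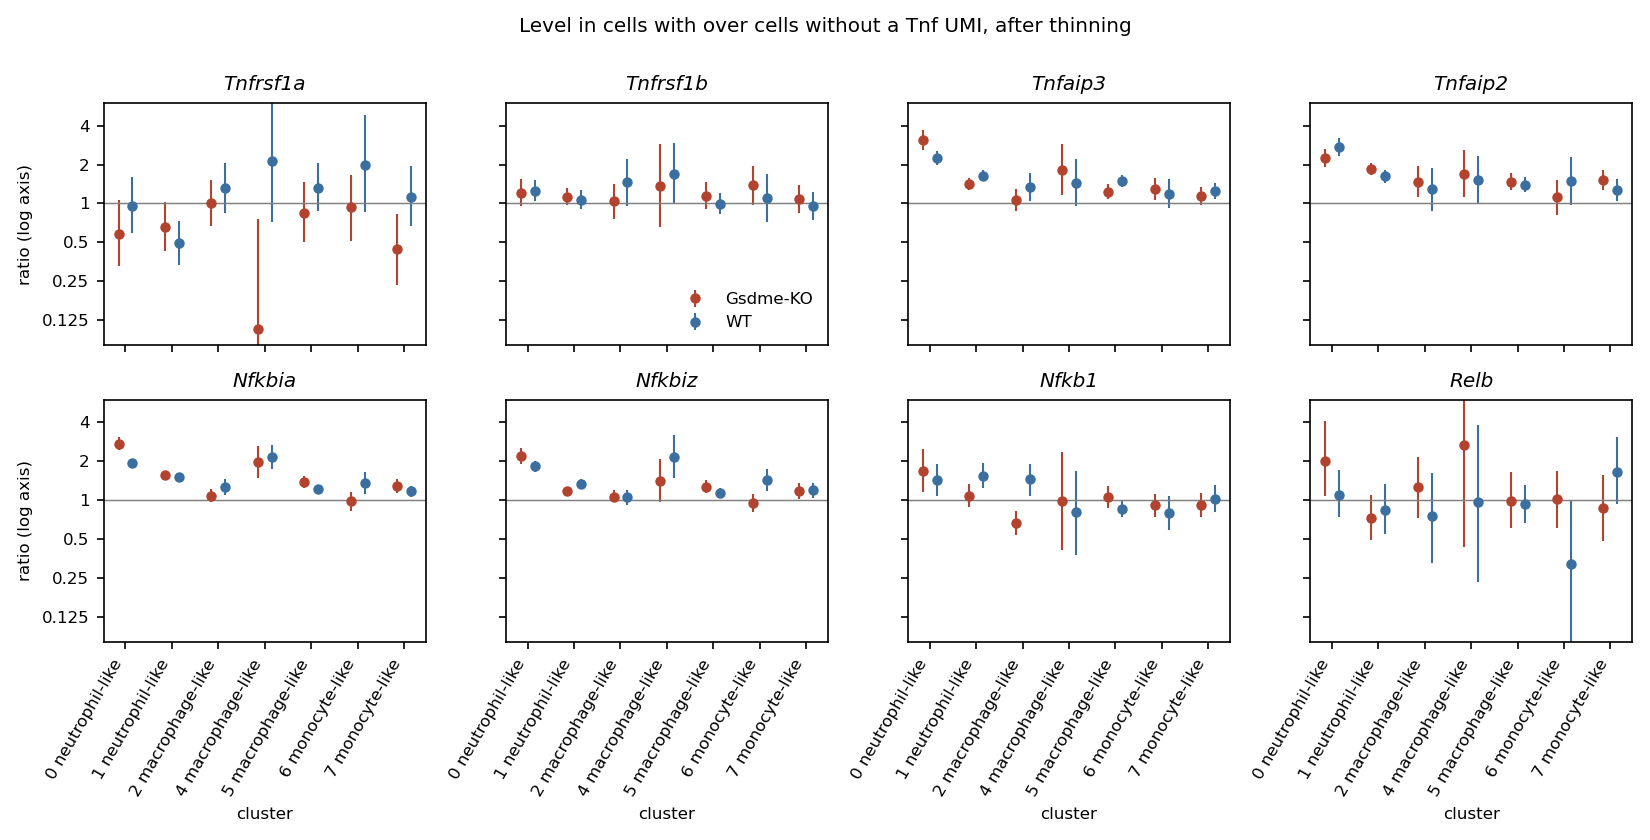
Ratio (log axis) of the level in cells with a Tnf UMI over cells without one, after thinning to 1000 UMIs, for 8 genes in the 7 clusters with enough cells in both libraries; points are Gsdme-KO (red) and WT (blue), bars are 95% counting intervals, and a few long intervals run past the axis. Tnfaip3 and Nfkbia in cluster 0 stand at 3.09 and 2.74 in Gsdme-KO and at 2.26 and 1.93 in WT.

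The rest of the pathway was described from 7 further lists, chosen with earlier results of these data known. TNF family ligands were sparse, with 2 to 8 of 17 genes measured per cluster. Tnfsf8, the gene of CD30 ligand, was measured in 3 clusters and was higher in all 3: it was at 252 CPM in Gsdme-KO and 74.9 CPM in WT cells of T cell-like cluster 13 (3.37, interval 2.57 to 4.46), and at 55.0 and 17.3 CPM in fibroblast-like cluster 10 (3.18). Tnfsf9, the gene of 4-1BB ligand, was lower in 3 of 15 clusters, such as fibroblast-like cluster 16 at 28.5 CPM in Gsdme-KO and 70.0 CPM in WT cells (0.407). Among 26 other TNF receptor genes, up to 12 were measured per cluster and at most 3 were past 1.5-fold in 1 direction, in T cell-like cluster 13 (3 of 8, where 6.91% of all features were higher), among them Cd27 at 193 CPM in Gsdme-KO and 122 CPM in WT cells (1.58). Fas, the gene of a death receptor, was at 21.9 CPM in Gsdme-KO and 13.1 CPM in WT cells of macrophage-like cluster 5 (1.67) and was past 1.5-fold in 2 of 12 clusters. No share over all features was at hand for the numbers of clusters given for Tnfsf8, Tnfsf9 and Fas.

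Receptor-proximal signalling genes were lower more often than higher in clusters 9, 10 and 16, as were all features there. The same held in clusters 0, 4 and 12, where the Tnf ratios were 1.17, 1.27 and 1.22. In cluster 0, 0 of 21 measured were higher and 1 lower (8.50 and 8.85% of all features). In clusters 4 and 12, 2 of 21 were higher and 3 lower (6.13 and 10.5% of all features in cluster 4, 8.06 and 10.9% in cluster 12). In fibroblast-like cluster 16, 0 of 21 measured were higher and 5 lower, with a median of −0.33, where 4.61% of all features were higher and 11.1% lower with a median of −0.11. In dendritic-like cluster 9, 0 of 23 were higher and 4 lower, with a median of −0.30, where 7.81% of all features were higher and 9.99% lower with a median of −0.02. In fibroblast-like cluster 10, 0 of 19 were higher and 3 lower, with a median of −0.19, where 4.44% of all features were higher and 9.51% lower with a median of −0.12. Traf5, a TNF receptor adaptor gene, went the other way: it was above 1 in 14 of 14 clusters and past 1.5-fold in 7, for example at 155 CPM in Gsdme-KO and 90.1 CPM in WT cells of macrophage-like cluster 2 (1.72, interval 1.55 to 1.93). No share over all features was at hand for the Traf5 count, since Traf5 was not measured in every cluster. Adam17, which encodes the sheddase of membrane TNF, was within 1.5-fold in all 15 clusters (0.808 to 1.38). Among the 7 other subunit and IkB genes, Nfkbie, the gene of IkB-epsilon, was below 1 in 14 of 15 clusters (13 with either other scaling) and past 1.5-fold lower in 2 (1), and in endothelial-like cluster 12 it was higher, at 40.2 CPM in Gsdme-KO and 23.8 CPM in WT cells (1.69, interval 0.931 to 3.22). The lower values of Nfkbie were, for example, in platelet-like cluster 21 at 51.1 CPM in Gsdme-KO and 127 CPM in WT. Of the 2999 features measured in all 15 clusters, 5.97% were below 1 in at least 14. Of 15 other feedback genes, Tnip3, whose protein binds A20, was higher in 3 of 10 clusters, among them macrophage-like cluster 2 at 30.8 CPM in Gsdme-KO and 11.6 CPM in WT cells (2.66, interval 1.98 to 3.62). No share over all features was at hand for the Tnip3 count. In fibroblast-like cluster 10, 1 of 13 feedback genes was higher and 5 lower, with a median of −0.18. There 4.44% of all features were higher and 9.51% lower, with a median of −0.12.

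Known NF-kB target genes were split in direction. Ccl2, the gene of a monocyte-attracting chemokine, was above 1 in 14 of 15 clusters and past 1.5-fold higher in 12 (0.938 to 7.42). Of the 2999 features measured in all 15 clusters, 5.44% were not below 1 in at least 14. Ccl2 was at 2246 CPM in Gsdme-KO and 664 CPM in WT cells of fibroblast-like cluster 10 (3.38, interval 3.27 to 3.50). In macrophage-like cluster 2 it was at 1837 and 941 CPM (1.95). Il6 was above 1 in 13 of 14 clusters and past 1.5-fold in 4, and no share over all features was at hand for genes not measured in all 15. Irf1, the gene of an interferon-linked transcription factor, was below 1 in 15 of 15 clusters (0.465 to 0.981; 14 with median-of-ratios scaling) and past 1.5-fold in 5, at 203 CPM in Gsdme-KO and 436 CPM in WT cells of fibroblast-like cluster 16. Tlr2 was below 1 in 14 of 15 and past 1.5-fold in 4, and 5.97% of the 2999 features were below 1 in at least 14. In endothelial-like cluster 12, 5 of 19 measured targets were higher and 1 lower, with a median of 0.30, where 8.06% of all features were higher and 10.9% lower with a median of −0.05. The adhesion gene Sele was at 166 CPM in Gsdme-KO and 58.0 CPM in WT cells (2.86, interval 2.01 to 4.16), Cxcl1 at 701 and 343 CPM (2.04) and Tnfaip6 at 204 and 101 CPM (2.02). Counts of 4 higher were seen in other clusters as well. In neutrophil-like clusters 0 and 1, 4 of 18 were higher and 1 lower, Ptgs2 (0.655 and 0.532). Of all features, 8.50% were higher and 8.85% lower in cluster 0, and 9.69 and 8.79% in cluster 1. Platelet-like cluster 21 also had 4 of 18 higher and 1 lower (17.3 and 14.8% of all features). In macrophage-like cluster 2, 4 of 19 were higher and 1 lower, where 2.64% of all features were higher and 4.14% lower. In macrophage-like cluster 4, 4 of 16 were higher and 0 lower (6.13 and 10.5% of all features). In fibroblast-like cluster 10, 4 of 19 were higher and 4 lower (4.44 and 9.51%), with ratios of 3.56 for Sele and 2.01 for Cxcl1. Tnfaip6 was at 2.89 in platelet-like cluster 21. In fibroblast-like cluster 16, 2 of 17 were higher and 6 lower, with a median of −0.24, where 4.61% of all features were higher and 11.1% lower; among the lower ones were Il1b at 160 CPM in Gsdme-KO and 397 CPM in WT cells and Clec4e at 31.4 and 96.0 CPM, both genes known mainly from myeloid cells. Immediate early and heat shock genes, which tissue dissociation can induce, were past 1.5-fold lower for 4 of 18 in cluster 16 (median −0.34; 11.1% of all features lower) and 3 of 18 in cluster 10 (−0.20; 9.51% lower). They were higher for 5 of 18 in cluster 11 (0.32; 9.69% of all features higher) and 8 of 18 in cluster 21 (0.32; 17.3% higher), and their part in the ratios of the 9 genes was not tested.

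Genes with the most similar pattern were ranked by Pearson's r of log2(CPM + 5) over 30 points, the 15 clusters of both libraries, among 7460 features; the points of 1 library share its depth and makeup, and no test was made. Tnf was most like Ccl3 (0.96), Ccrl2 (0.95) and Tlr13 (0.95). Tnfrsf1b was most like Diaph1 (0.96) and Orai2 (0.96) and then Tnfaip3 (0.95), for which Tnfrsf1b in turn came first. Nfkbia and Nfkbiz were in each other's 3 nearest genes (0.93), beside Kcnj2 (0.94) for Nfkbia. Tnfaip2 was most like Pygl (0.90), Relb was most like Arih2 (0.93) and Nfkb1 was most like Kdm6b (0.86). Tnfrsf1a had the weakest nearest gene, Trib1 (0.83). Between the ligand and its receptors, r was 0.83 for Tnf and Tnfrsf1b and 0.23 for Tnf and Tnfrsf1a.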

How the data were processed

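Aorta cells of 2 BD Rhapsody libraries, 1 per group, were counted by the authors; the deposited values are whole counts per gene and barcode, taken here as UMI counts. CASAVA 1.8, STARsolo and mm10 are named per the submitters' processing notes, and no label names the annotation. Of the 31253 features, 31107 IDs were in GENCODE M21. The lowest barcode total was 500 in both libraries, and 73 barcodes occurred in both.

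The 9 genes and all lists were chosen with earlier results of these data known. Cells with at least 500 UMIs, 250 genes and at most 25% mitochondrial UMIs were kept and clustered with scanpy 1.11.5 and scikit-learn 1.9.0 (Python 3.11.15, numpy 2.4.6, scipy 1.17.1) on 2000 variable genes without the 141 listed genes, 30 principal components, 15 neighbours and Leiden resolution 1. Clusters took a name only where at least 3 of its markers were detected; 4 of 25 stayed unnamed and 6 were under 100 cells in a library. Scrublet marked 1 Gsdme-KO cell and 0 WT cells and so had not worked; doublets were not removed. UMIs were summed per cluster and library. Levels have exact Poisson, ratios exact conditional binomial and shares exact Clopper-Pearson 95% intervals, all for counting error only. Features with at least 10 CPM in the higher library and 30 UMIs in both together counted as measured. Listed genes were named, up to 5 each way per cluster, from those with at least 50 UMIs and 1.5-fold, ranked by the interval end nearest 1; not all of these are printed, and Adam17 was added for its role after its values were seen. Order between clusters was called only where both libraries of one exceeded both of the next. The ratio and interval formulas, but not the summing, were tested on Poisson counts simulated from the sums of clusters 10, 12 and 16. Alternatives used other cell limits, resolutions and scalings, the last with edgeR 4.0.16 and DESeq2 1.42.0 size factors under R 4.3.3.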

Additional observations from a re-analysis of the deposited data

Results flagged for a closer look

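Tnfaip2 differed in direction between clusters: its ratio of Gsdme-KO over WT was 1.69 in platelet-like cluster 21 and 0.536 in B cell-like cluster 11. It was picked out because the libraries lay more than 1.5-fold apart in opposite directions in 2 cell classes. The difference was not tested, since each group had 1 library. Under most alternative settings the ratio of cluster 21 was within 1.5-fold, while that of cluster 11 stayed past it. Fibroblast markers in cluster 21 summed to 11899 CPM in Gsdme-KO and 4354 CPM in WT, and their part was not tested.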

How the results depend on the processing

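No paired analysis was possible because each group had 1 library. The 7 ratios past 1.5-fold were recomputed 69 times under the planned settings: 50 stayed past 1.5-fold in the same direction, and 1 reversed, Tnf in cluster 21, at 1.10 when the top 5% of each library by Scrublet score was left out. Tnf in clusters 10 and 16 and Tnfaip2 in cluster 11 stayed past 1.5-fold under every planned setting that gave a value (0.407 to 0.621, 0.198 to 0.347 and 0.260 to 0.624); cluster 16 had no counterpart at resolution 0.5, nor had cluster 1 there or without the highest Scrublet scores. The 2 pairs higher in Gsdme-KO became 4 with at least 1000 UMIs per cell, 1 at resolution 2, 8 after thinning and 4 with a mean over cells. The 5 lower pairs became 3 at resolution 0.5 and 3 at resolution 2. The median log2 ratio of the 9 genes in cluster 1 (−0.18) was 0.01 with at least 1000 UMIs, −0.04 with at most 10% mitochondrial UMIs and 0.03 with the listed genes kept in clustering. In cluster 2 (0.02) it was 0.15 after thinning, 0.09 as a mean over cells, 0.11 with TMM and 0.10 with median-of-ratios factors. In cluster 5 (−0.13) it was −0.19 after thinning, −0.19 as a mean over cells, −0.09 with TMM and −0.09 with median-of-ratios factors. In cluster 9 (−0.36) it was −0.15 as a mean over cells. In cluster 10 (−0.09) it was −0.02 with at most 10% mitochondrial UMIs, −0.17 at resolution 0.5, −0.01 after thinning, 0.06 with TMM and 0.05 with median-of-ratios factors. In cluster 21 (0.08) it was 0.30 without the highest Scrublet scores. The cause was not tested. Chosen after the data were seen, cells with no macrophage or neutrophil marker UMI gave Tnf ratios of 0.456 in cluster 10 and 0.746 in cluster 16.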
